A study of Mus musculus with 7 samples.

Results

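Annexins and S100 proteins are calcium-binding proteins of the cytoplasm and plasma membrane. The 10 genes described here, Anxa1, Anxa2, Anxa3, Anxa4, Anxa5, S100a1, S100a6, S100a10, S100a11 and S100a13, are a part of both families, picked by gene name from the 55341 gene names of the deposited counts table, and the rest of each family is described at the end. All 10 passed the filter on low counts, which left 15257 genes in the tests. The study grafted wild-type embryonic cortical cells into the cortex of 5xFAD mice and asked whether microglia carry amyloid into tissue that was free of it, and sequenced microglia from within and outside the grafts to compare them. Microglia were sorted as CD11b+CD45low cells from grafts isolated 4 weeks after injection (3 libraries, inside the graft, named graft replicates 1 to 3) and from small pieces of cortex close by (4 libraries, outside the graft, named control replicates 1 to 4), and RNA-seq was run on both. Both groups came from 5xFAD mice on C57BL/6, aged 14 weeks per the labels. 5xFAD mice carry human APP and PS1 transgenes with familial Alzheimer mutations under the neuronal Thy1 promoter. The host neurons, and not the grafted cells, therefore make the human mutant amyloid precursor. The outside libraries are therefore microglia of a diseased brain and not of a healthy one. No label ties a library to an animal, so the P values measure the spread between these libraries, which may be partly technical.

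Annexins bind the acidic phospholipids of membranes when calcium rises, and S100 proteins are small EF-hand calcium sensors that change shape and dock onto target proteins. The families meet in complexes: Anxa2 pairs with S100a10 at the plasma membrane, and Anxa1 binds S100a11. Anxa1 is also secreted and acts on formyl peptide receptors, for which it is known as a brake on neutrophil recruitment. Anxa5 binds phosphatidylserine, the lipid that dying cells expose and phagocytes recognise. In the brain Anxa3 is known as a gene that microglia express, while S100a8 and S100a9, relatives of the S100 genes described here, are abundant in neutrophils and monocytes.

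Library totals ran from 18644807 to 25882122 counts. The summed level of 10 microglia markers was 47441 to 55107 CPM (counts relative to the library size, scaled by TMM) inside the graft and 54368 to 60334 outside; all 10 were lower on average inside and none passed the test. Marker transcripts of other blood cells moved with the groups and with single libraries. The summed level of 9 neutrophil markers was 4600, 1203 and 8216 CPM in graft replicates 1, 2 and 3 and 687 to 913 outside, with 8 of the 9 higher on average inside. Csf3r alone made up 687 CPM or more of that sum in every library. Ngp, Camp, Ltf and Ly6g, which define neutrophils and their precursors, were present in all 3 graft libraries, whereas Mmp8 was at 0 in graft replicates 1 and 3 and Elane at 0 in replicate 2. Control replicate 3 also held Ngp, Camp, Ltf and Ly6g, at 94.6, 25.4, 69.9 and 0.724 CPM, beside 182, 79.4, 148 and 2.22 CPM in graft replicate 2. In the other control libraries each of them was at most 0.374 CPM. The gate took CD45low cells, and neutrophils and monocytes are known to carry more CD45 than microglia. The gating that the study's methods refer to for this sort also stained Ly6C and Ly6G, surface markers of monocytes and neutrophils. Which cells the neutrophil and monocyte transcripts came from was not tested. The 10 monocyte markers summed to 748, 90.1 and 1519 CPM inside and 12.01 to 36.6 outside, with 9 of the 10 higher on average inside. Of 8 tested markers of border-associated macrophages, 7 were fitted higher inside (median log2 fold change 3.03) and none passed an adjusted P of 0.05. Pf4 was at 9.85, 3.15 and 18.8 CPM in the graft libraries and at most 0.972 outside, Ms4a7 at 15.2, 3.51 and 18.3 and at most 2.51, and Mrc1 at 61.2, 7.81 and 48.6 and at most 14.2, whereas Stab1, which made up most of the list's sum, was at 379 to 533 inside and 527 to 622 outside. All 8 proliferation markers were higher in every graft library than in any control, with sums of 80.5 to 132 CPM inside and 6.56 to 34.2 outside. Top2a, Tpx2 and Birc5 passed an adjusted P of 0.05 in voomWithQualityWeights (0.0316, 0.0411 and 0.0482). In bulk samples, fewer cells of a type and less RNA per cell cannot be told apart.

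All 10 genes had a higher fitted level inside the graft, by a median log2 fold change of 1.11 in voomWithQualityWeights (limma), where the median of all genes was -0.01. Of all genes tested, 48.3% had a positive fold change. The 10 genes were chosen with earlier results of these data known, so the shares given here describe them and do not test the families. At the study's threshold, an adjusted P of 0.01, no member was called by voomWithQualityWeights (0.0197% of all genes were called higher) or by edgeR's quasi-likelihood test (0% of all genes). At an adjusted P of 0.05, voomWithQualityWeights called 2 members, Anxa2 and Anxa5, beside 0.433% of all genes called higher, and edgeR's quasi-likelihood test called 1, Anxa2, beside 0.0983% of all genes. At an unadjusted P of 0.05, voomWithQualityWeights picked 6 members and 7.47% of all genes as higher. DESeq2 called 3 members at an adjusted P of 0.01, namely Anxa2, Anxa5 and S100a11, beside 1.21% of all genes called higher. In 5 members, Anxa1, Anxa2, Anxa5, S100a11 and S100a13, every graft library lay above every control library, which held for 5.65% of all genes. "Rose" is used below only of Anxa2 and Anxa5, at the adjusted P of 0.05.

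**Figure D1:**
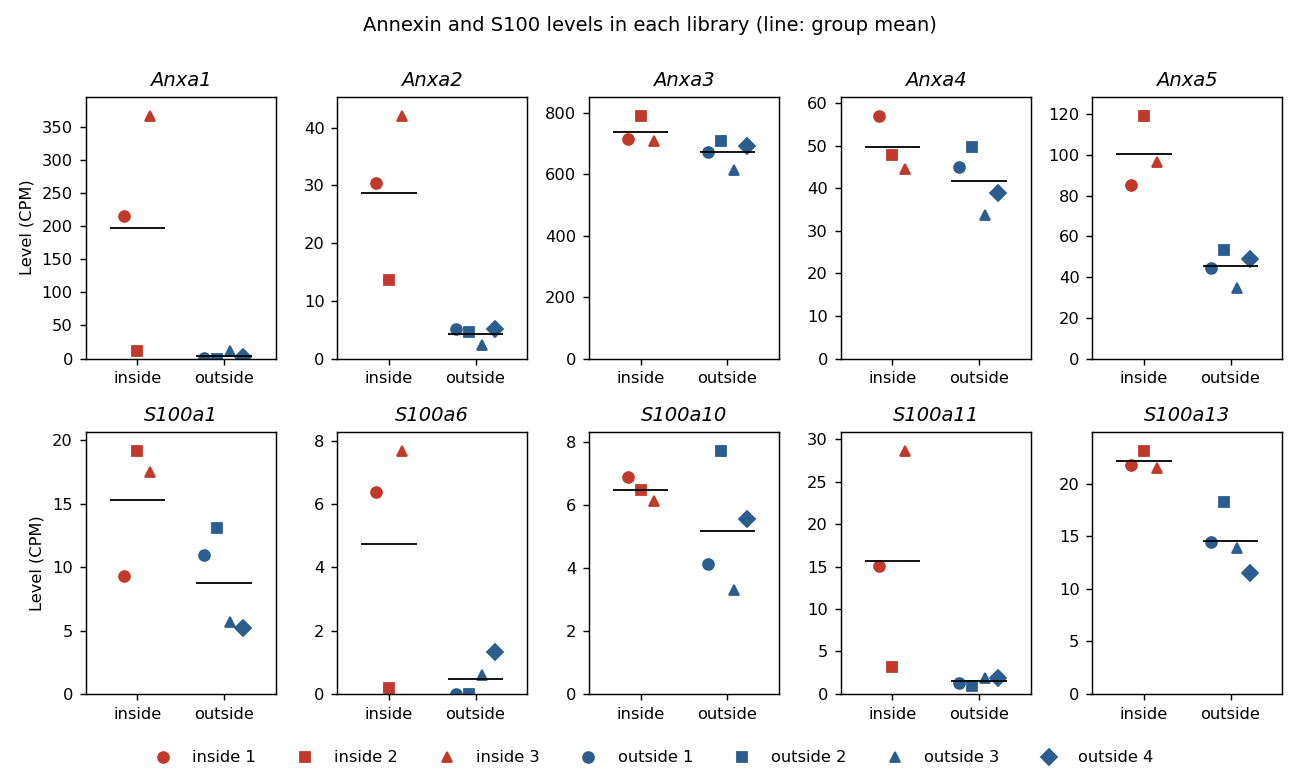
Level of each gene in CPM (y axis, linear, starting at 0) in the 3 libraries from inside the graft (red) and the 4 from outside (blue). Each symbol is 1 library and each line a group mean. Anxa2 and Anxa5 are separate between the groups, Anxa3 overlaps between them, and inside replicate 2 is the lowest of the inside libraries for Anxa1, Anxa2, S100a6 and S100a11.

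Anxa2 and S100a10 encode the partners of 1 complex, in which a S100a10 dimer joins Anxa2 molecules on the membrane and binds plasminogen and its activator. Anxa2 (chr9:69453620-69491795, plus strand, GRCm38) stood at 30.4, 13.6 and 42.0 CPM in graft replicates 1, 2 and 3, and at 5.18, 4.54, 2.41 and 5.10 CPM in control replicates 1 to 4. The groups did not overlap, and the lowest graft library, replicate 2, was 2.62 times the highest control library. Anxa2 rose inside the graft by a log2 fold change of 2.76 (95% interval 1.74 to 3.77, voomWithQualityWeights, adjusted P = 0.0374). The edgeR quasi-likelihood estimate was 2.74 (adjusted P = 0.0485). The voomWithQualityWeights call held when graft replicate 2 was left out, while leaving out any other library gave an adjusted P of 0.0534 to 0.231. With graft replicate 2 as the sole graft library the estimate was 1.83 (voomWithQualityWeights). An antisense gene, Gm16144, overlaps exons of Anxa2 and held at most 3 counts in any library, so that the unstranded counting left Anxa2 almost all the reads assigned at this locus.

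S100a10 (chr3:93555080-93564643, plus strand) did not follow Anxa2. It was at 6.87, 6.48 and 6.11 CPM in the 3 graft libraries and at 4.11, 7.69, 3.30 and 5.55 CPM in the 4 control libraries. The groups overlapped, with control replicate 2 the highest of all. The log2 fold change was 0.45 (95% interval -0.29 to 1.19, voomWithQualityWeights, adjusted P = 0.666), which leaves room for a rise of up to that upper bound. Per length, as TPM (transcript levels scaled by gene length and library), the ratio of Anxa2 to S100a10 was 1.44, 0.681 and 2.23 inside the graft and 0.409, 0.192, 0.238 and 0.299 outside. The TPM of Anxa2 was thus below that of S100a10 in each control library and in graft replicate 2, and above it in graft replicates 1 and 3. The lengths are those of all annotated exons merged, 3731 bases for Anxa2 and 1212 for S100a10. Which transcripts were expressed was not tested, so the ratio does not show which of the genes had more transcript molecules.

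The upstream sequence of Anxa2 is shown because it shares a motif with that of S100a11, which has the largest edgeR estimate of the 5 S100 genes. Both lines below are RefSeq promoter windows of GRCm38.p6, cut where the first annotated exon begins, and capitals mark each match to the AP-1 motif TGANTCA, searched on both strands.
Anxa2, chr9:69453433-69453619, plus strand: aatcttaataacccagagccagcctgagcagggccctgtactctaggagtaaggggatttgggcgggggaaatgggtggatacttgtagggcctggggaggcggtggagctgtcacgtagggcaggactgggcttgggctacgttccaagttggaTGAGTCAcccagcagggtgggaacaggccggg
S100a11, chr3:93520246-93520487, plus strand: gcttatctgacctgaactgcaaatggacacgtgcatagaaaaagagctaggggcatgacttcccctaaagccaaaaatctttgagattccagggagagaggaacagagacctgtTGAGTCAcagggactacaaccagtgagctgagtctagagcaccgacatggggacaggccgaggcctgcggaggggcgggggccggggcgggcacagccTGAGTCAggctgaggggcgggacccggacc
The S100a11 stretch held 2 matches and the Anxa2 stretch 1. Promoter windows were given for 8 of the 10 genes, not for Anxa3 and S100a10. Among those 8 genes Anxa2 and S100a11 were the 2 with a match in the 250 bases before the start, and 6.7% of all 32851 windows of this length held one. The C/EBP motif TTGCNNAA was found for Anxa1 and Anxa4 and in 9.6% of all windows, and the TATA box TATAAA for Anxa1 and Anxa2 and in 12.4%. Neither motif overlaps a match of the others in these windows. All 250 bases of the Anxa1 window lie in annotated exons of Anxa1, and the TATA match of Anxa2 lies in the exon part cut from its line above. Only 1 of the 2 Anxa4 windows held the C/EBP match. A match describes the letters and does not show that a factor binds there.

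Anxa5, the phosphatidylserine-binding annexin (chr3:36448923-36475894, minus strand), is the annexin used as a stain for dying cells. It was at 85.3, 119 and 96.4 CPM in graft replicates 1, 2 and 3 and at 44.3, 53.2, 34.8 and 48.9 CPM in the control libraries. Every graft library was above every control library, and replicate 2, the graft library with the fewest neutrophil and monocyte transcripts, was the highest. Anxa5 rose by a log2 fold change of 1.17 (95% interval 0.78 to 1.56, voomWithQualityWeights, adjusted P = 0.0330), from a mean of 45.3 ± 7.89 CPM (SD, n = 4) to 100.3 ± 17.2 CPM (SD, n = 3). By edgeR's quasi-likelihood test the estimate was 1.15 and the adjusted P 0.0546, on the other side of that threshold. Without control replicate 3 or 4 the voomWithQualityWeights adjusted P was 0.165 or 0.108, and without any other library it stayed under 0.05. With graft replicate 2 as the sole graft library, a setting chosen after seeing the data, the estimate was 1.45 (voomWithQualityWeights). That library, too, had higher neutrophil and monocyte marker sums (1203 and 90.1 CPM) than any control. Chil3 gave 67.6 CPM of the monocyte sum. Of the 10 monocyte markers, 4 were above every control library in all graft libraries. Ccr2 was lower in graft replicate 2 (4.26 CPM) than in control replicates 2 and 4 (13.7 and 18.1). The part of these transcripts in the level of Anxa5 was not tested.

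**Figure D2:**
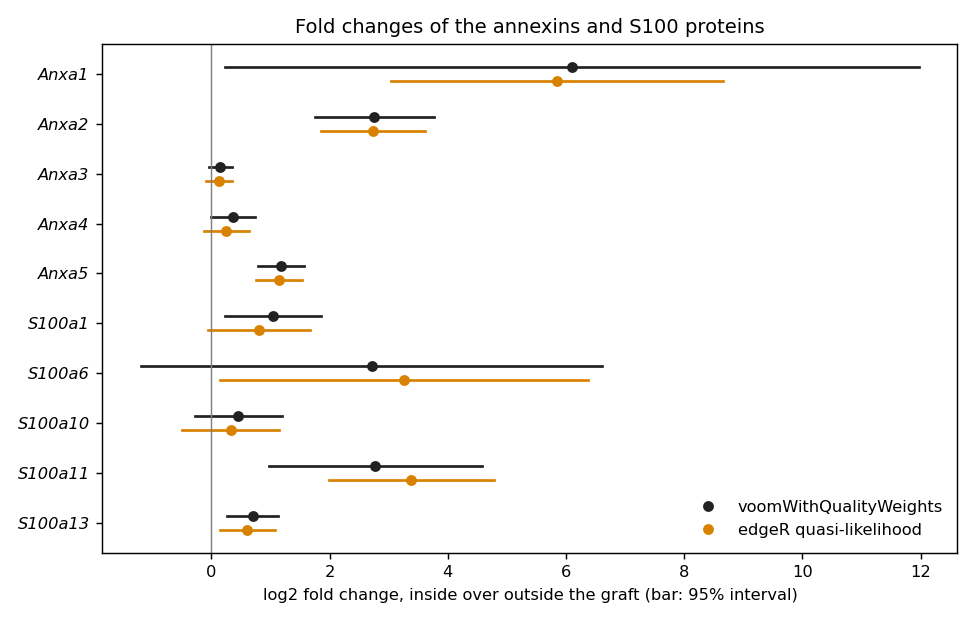
Log2 fold change of each gene, inside over outside the graft (x axis), from voomWithQualityWeights (black) and edgeR's quasi-likelihood test (orange), with 95% intervals as bars. All 20 estimates are above 0. The intervals of Anxa1, S100a6 and S100a11 are the widest, and those of Anxa3, Anxa4 and S100a10 include 0 in both tests.

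Anxa1, the ligand of formyl peptide receptors (chr19:20373428-20390944, minus strand), had the largest fitted fold change of the 10 in both tests, and a wide interval. It was at 216, 11.6 and 367 CPM in graft replicates 1, 2 and 3 and at 0.640, 0, 10.98 and 1.78 CPM in control replicates 1 to 4. The count of 0 in control replicate 2 allows up to 0.133 CPM. Graft replicates 1 and 3 were far above all controls, whereas graft replicate 2 was only 1.06 times control replicate 3. The log2 fold change was 6.10 (95% interval 0.23 to 11.96, voomWithQualityWeights, adjusted P = 0.390) and 5.85 by edgeR's quasi-likelihood test (adjusted P = 0.106). Without graft replicate 2 it was 7.65 (voomWithQualityWeights, adjusted P = 0.0167), and with graft replicate 2 as the sole graft library 3.09.

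S100a11, the S100 partner of Anxa1 (chr3:93520488-93526287, plus strand), was highest in the same libraries. Its levels were 15.1, 3.20 and 28.6 CPM inside the graft and 1.23, 0.934, 1.93 and 1.86 CPM outside. The groups did not overlap, but graft replicate 2 was 1.65 times the highest control library while graft replicate 3 was 19.2 times the control mean. The log2 fold change was 2.77 (95% interval 0.97 to 4.58, voomWithQualityWeights, adjusted P = 0.174), and 3.38 by edgeR's quasi-likelihood test (adjusted P = 0.0772). Leaving out graft replicate 2 brought the voomWithQualityWeights estimate to 3.66 (adjusted P = 0.00868). A processed copy, S100a11-ps, had 0 counts in all libraries.

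S100a6 (chr3:90612882-90624181, plus strand), known as a calcium sensor of proliferating and stromal cells, was a low gene with the same division. It was at 6.40, 0.178 and 7.67 CPM inside the graft, from 163, 4 and 182 counts, and at 0, 0, 0.604 and 1.34 CPM outside. Graft replicate 2 was below control replicates 3 and 4, so the groups overlapped. The fitted log2 difference was 2.71 (95% interval -1.19 to 6.61, voomWithQualityWeights, adjusted P = 0.611). With graft replicate 2 alone inside, the estimate turned to -0.74 (voomWithQualityWeights), so its direction depends on which graft libraries enter.

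The division among the graft libraries was a matter of degree across the 10 genes. The highest graft library was 43.2 times the lowest for S100a6, 31.5 times for Anxa1, 8.94 times for S100a11 and 3.09 times for Anxa2, in each case replicate 3 over replicate 2. S100a8 and S100a9 spanned 19.6 and 21.7 times in the same direction, the neutrophil granule gene Ngp 21.6 times and Chil3, from the monocyte list, 17.6 times. Not all markers of those lists did so. Csf3r, from the neutrophil list, spanned 1.11 times with replicate 2 the highest. Fn1, from the monocyte list, was at 5.81, 4.66 and 0.211 CPM in graft replicates 1, 2 and 3. Replicate 3 was also highest and replicate 2 lowest for Mki67 (proliferation, 2.58 times) and Pf4 (border-associated macrophages). For S100a1, Anxa5, Anxa4, S100a10, Anxa3 and S100a13 the ratio was 2.06, 1.40, 1.28, 1.12, 1.11 and 1.07, and replicate 3 was the highest in none of them. Across all 7 libraries, Anxa1 and S100a11 ranked the libraries in the order of S100a8: graft replicates 3, 1 and 2, then control replicates 3, 4, 1 and 2. Anxa2 shared that order among the graft libraries but not among the controls, where replicate 3 was its lowest. What part the neutrophil and monocyte transcripts have in the levels of Anxa1, Anxa2, S100a6 and S100a11 was not tested.

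**Figure D3:**
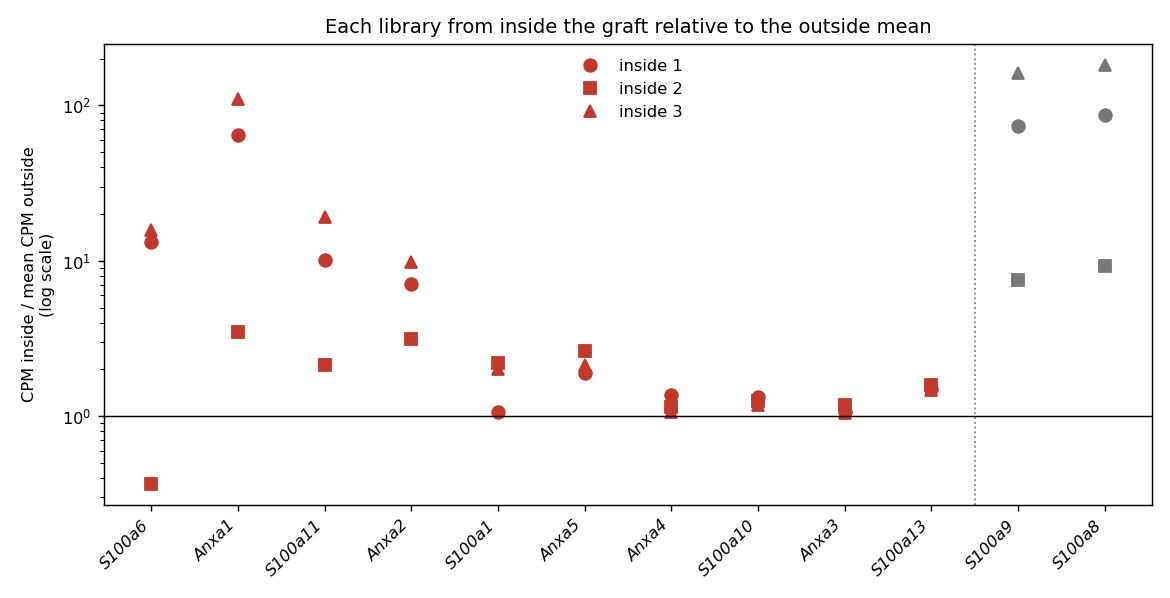
Level of each gene in each library from inside the graft divided by its mean over the 4 outside libraries (y axis, log scale, 1 marked by a line); circles, squares and triangles are inside replicates 1, 2 and 3. S100a9 and S100a8, right of the dotted line, are relatives shown for comparison. The symbols spread widely for S100a6, Anxa1, S100a11 and Anxa2 and lie close together from Anxa5 to S100a13.

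S100a13, an S100 protein known for the release of signal-less growth factors (chr3:90514435-90524581, plus strand), showed the least spread among the graft libraries. It was at 21.8, 23.1 and 21.5 CPM inside the graft and at 14.5, 18.2, 13.9 and 11.5 CPM outside. No graft library fell into the control range. Its log2 fold change was 0.70 (95% interval 0.26 to 1.13, voomWithQualityWeights, adjusted P = 0.160) and 0.61 by edgeR's quasi-likelihood test (adjusted P = 0.330). With graft replicate 2 as the sole graft library it was 0.75.

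S100a1 (chr3:90511034-90514392, minus strand), known best for calcium handling in muscle, is the neighbour of S100a13 and is read in the opposite direction. The stretch between their starts, on the plus strand of GRCm38.p6, holds no annotated exon of either gene and is shown because the pair starts from it.
S100a1 to S100a13, chr3:90514393-90514434: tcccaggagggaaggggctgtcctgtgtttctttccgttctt
Its length is 42 bases, of which 54.8% are G or C. S100a1 was at 9.26, 19.1 and 17.5 CPM inside the graft and at 10.99, 13.1, 5.67 and 5.22 CPM outside. Unlike S100a13 it overlapped between the groups, since graft replicate 1 was below control replicates 1 and 2. The log2 fold change of S100a1 was 1.04 (95% interval 0.23 to 1.85, voomWithQualityWeights, adjusted P = 0.269). The 5 S100 genes lie with others of the family on chromosome 3, where 13 S100a genes span 3.05 megabases.

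Anxa3 (chr5:96793339-96845966, plus strand) was the most abundant of the 10 genes in every library, and its level was close between the groups. It was at 714, 790 and 709 CPM inside the graft and at 673, 710, 613 and 693 CPM outside. Graft replicate 3 was below control replicate 2, so the ranges met. A log2 fold change of 0.15 was fitted (95% interval -0.05 to 0.34, voomWithQualityWeights, adjusted P = 0.570). The upper bound of that interval is far under the estimates for Anxa2 and Anxa5. Gm42603, which overlaps an Anxa3 exon on the same strand, was at 2.35 to 9.54 CPM.

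Anxa4 (chr6:86736840-86793584, minus strand), an annexin known from the membranes of secretory epithelia, stood at 57.0, 47.8 and 44.5 CPM inside the graft and at 45.1, 49.7, 33.7 and 39.0 CPM outside. Only graft replicate 1 exceeded all controls. Its fitted log2 difference was 0.36 (95% interval -0.01 to 0.73, voomWithQualityWeights, adjusted P = 0.428). Over the 7 libraries, the genes whose log2 CPM followed Anxa3 most closely were Gm43984, Serf2 and Ptchd1 (Pearson r of 0.976, 0.974 and 0.973), and those nearest S100a13 were Cnn3, Vps13c and Gpr89 (r of 0.985, 0.975 and 0.975). These are the highest of many correlations over the same 7 libraries and are given as descriptions.

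On the per-length scale, the order of mean TPM outside the graft was Anxa3 (582), Anxa5 (80.2), S100a13 (63.9), S100a1 (39.3), Anxa4 (28.3), S100a10 (13.4), S100a11 (9.30), Anxa1 (3.80), Anxa2 (3.62) and S100a6 (1.16). The library ranges of neighbours in that order were separate only between Anxa3 and Anxa5 and between Anxa4 and S100a10. Inside the graft the order was Anxa3 (594), Anxa1 (206), Anxa5 (165), S100a11 (92.2), S100a13 (91.0), S100a1 (64.2), Anxa4 (31.6), Anxa2 (23.0), S100a10 (15.7) and S100a6 (10.5). There the neighbours were separate between Anxa3 and Anxa1, between S100a13 and S100a1 and between S100a1 and Anxa4. Anxa1 and S100a11 took their high places from graft replicates 1 and 3, since in replicate 2 they were at 10.97 and 17.2 TPM.

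The make-up of each family shifted in the same libraries. Anxa3 held 83.6%, 82.3%, 84.3% and 83.4% of the summed TPM of the 5 annexins in the control libraries. In graft replicates 1, 2 and 3 it held 57.9%, 71.9% and 49.2%. Anxa1 held 21.9%, 1.32% and 31.8% of the annexin sum inside the graft and at most 1.89% outside. The S100a1 and S100a13 pair held 52.4%, 83.6% and 45.4% of the S100 sum inside the graft and 71.9% to 86.2% outside. Graft replicate 2 lay within the control range for the S100 pair and below it for Anxa3.

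**Figure D4:**
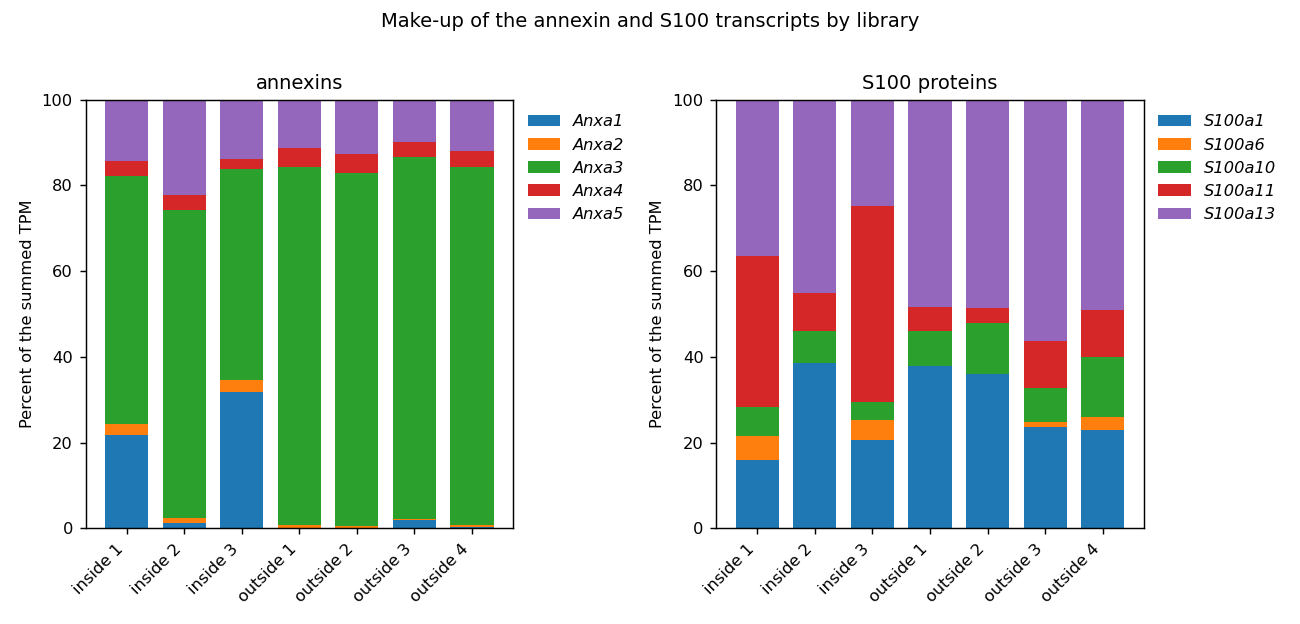
Share of each gene in the summed TPM of the 5 annexins (left) and of the 5 S100 proteins (right), in percent, for each library; each bar adds to 100. Anxa3 fills most of the outside bars, Anxa1 and S100a11 are large in inside replicates 1 and 3, and the S100 bar of inside replicate 2 resembles those from outside.

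None of the remaining family members that were tested passed an adjusted P of 0.05 in either main fit, over all 7 libraries. Of 7 other annexins 4 were tested and none passed an adjusted P of 0.05 in voomWithQualityWeights or edgeR, with a median log2 fold change of 0.09. Anxa9 was at 4.40 to 7.29 CPM inside and 1.12 to 3.26 outside (log2 fold change 1.10), and Anxa7 and Anxa11 were at 0.10 and 0.08 on that scale. Of 11 other S100 genes 4 were tested and none passed in these main fits. S100a8, which joins S100a9 in calprotectin, the main calcium-binding protein of neutrophils, was at 1953, 208 and 4077 CPM inside the graft and at 0.213, 0.0890, 80.3 and 8.91 CPM outside. Its log2 fold change was 7.45 (voomWithQualityWeights, adjusted P = 0.132), and that of S100a9 was 7.21 (adjusted P = 0.142). Without control replicate 3 they were 10.41 and 10.07 (adjusted P = 0.658 for both), and without graft replicate 2 they were 8.79 and 8.60 (adjusted P = 0.0164 for both). Over all libraries left out in turn, voomWithQualityWeights gave 6.01 to 10.41 for S100a8 and 5.99 to 10.07 for S100a9. Each was above all controls in every graft library.

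Of 14 receptors and binding partners of these proteins 10 were tested, and 1 passed an adjusted P of 0.05. Plaur, the urokinase receptor, which works at the cell surface in the plasminogen system that Anxa2 and S100a10 also serve, was at 64.0, 66.1 and 53.2 CPM inside the graft and at 36.7, 42.9, 28.0 and 30.7 CPM outside. Its log2 fold change was 0.93 (voomWithQualityWeights, adjusted P = 0.0411), and 0.82 by edgeR's quasi-likelihood test (adjusted P = 0.105). The voomWithQualityWeights call held without control replicate 2, and leaving out any other library gave an adjusted P of 0.0557 to 0.278. Plaur, like Anxa5, was highest in graft replicate 2. Fpr2, a receptor for Anxa1, was at 1.07 to 3.33 CPM inside and 0 to 1.55 outside, and Ahnak, the scaffold that the Anxa2 and S100a10 complex binds, at 0 to 12.4 inside and 0.0402 to 2.67 outside, and neither passed. Of 12 genes of calcium-dependent membrane repair, a process in which annexins seal torn membranes, 9 were tested and none passed, with 5 higher and 4 lower and a median log2 fold change of 0.06. Among them Myof, Capn1 and Vps4b had log2 fold changes of 3.61, 1.27 and -0.24.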

How the data were processed

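The deposited table holds whole-number counts per gene name, made by the authors with STAR 2.7.2a on GRCm38.p6, GENCODE M21 exons and featureCounts 1.6.2 (unstranded, multimapping reads left out, each read to the gene of largest overlap). Base calling used bcl2fastq 2.18. RNA of sorted cells was amplified by a SMARTer low-input kit, so that intervals and floors cover counting error and library spread but not the loss of rare molecules before amplification. Totals per library ranged from 18644807 to 25882122, and a count of 0 was read as up to 3 counts. From these counts, genes were filtered with filterByExpr and scaled by TMM (edgeR 4.0.16). The main test was voomWithQualityWeights as in the study's methods (limma 3.58.1), with edgeR's quasi-likelihood test beside it, in R 4.3.3, both over all 7 libraries with no covariate and with Benjamini-Hochberg adjustment over 15257 genes. Scripts were tested on simulated data. TPM were computed from the counts and the exon length given in the table. Gene positions come from GENCODE M21 and sequences from RefSeq. Library quality weights ran from 0.448 (control replicate 1) to 1.76 (control replicate 4). The members and lists were chosen with earlier results of these data known. Named beside the members were genes of the family, partner and membrane repair lists past an adjusted P of 0.05 in either test, the 3 of each such list with the largest voomWithQualityWeights change at a mean of at least 1 CPM, the 3 genes most correlated with the most abundant annexin and S100 gene (on log2 of CPM plus 1), and markers beside the results they touch. The sums of the other marker lists follow, inside and then outside the graft. Astrocytes, mostly Slc1a3, summed to 249 to 299.5 CPM and 327 to 352, though 4 of the 6 tested astrocyte markers were fitted higher inside. Oligodendrocytes summed to 156 to 160.3 and 155 to 165, and neurons to 3.77 to 6.07 and 3.25 to 10.9. Endothelial cells summed to 30.7 to 39.6 and 36.8 to 61.2, and fibroblasts to 0 to 1.10 and 0 to 2.40. T and NK cells summed to 0.266 to 11.96 and 0 to 0.0534, all from Nkg7 in graft replicates 1 and 3. Border-associated macrophages, mostly Stab1, summed to 396 to 638 and 534 to 633. Replicates of a group differed beyond counting noise (lowest chi-square over its degrees of freedom, 16.6). Alternatives were DESeq2 1.42.0, other scalings, filters and weights, a replicate block and each library left out.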

Additional observations from a re-analysis of the deposited data

Results flagged for a closer look

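Dixon's ratio over the 4 control libraries was computed for the CPM of 21 genes named in the text and passed the 95% critical value for 4 of them, where chance gives about 1 in 20; groups of 3 libraries were not tested. Control replicate 3 stood apart for Anxa1 at 10.98 CPM, with 1.78 CPM in the next library. The same library stood apart for S100a8 at 80.3 CPM and S100a9 at 85.9 CPM, where the next library, control replicate 4, had 8.91 and 8.10. These 3 flags share 1 library and are not independent of each other. Vps4b was at 92.9 CPM in control replicate 1, and its nearest neighbour was at 159.9 CPM.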

How the results depend on the processing

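No main estimate of the 10 members, Plaur, S100a8 and S100a9 passed an adjusted P of 0.01. Keeping that side therefore does not describe the calls at an adjusted P of 0.05. Of 369 alternative estimates for these genes, 347 kept direction and side of the adjusted P of 0.01, 20 passed it newly and 2 turned. Those 2 were S100a6 with graft replicate 2 as the sole graft library, a setting chosen after seeing the data in which the lone library is assumed to vary like the others, at -0.74 (voomWithQualityWeights) and -1.43 (edgeR). At that threshold the number of members called was 0 in both tests. It was 2 in voomWithQualityWeights and 1 in edgeR at an adjusted P of 0.05, 2 in both with at least 10 counts required in every library (8 members tested), 4 in edgeR with no filter on low counts, and 3 with DESeq2. Over all genes, where the main tests called 3 (voomWithQualityWeights) and 0 (edgeR) of 15257, the last 3 settings called 48 and 20 of 12066, 190 of 29525 and 232 of 15257. Leaving out each library in turn gave 0 to 2 calls in voomWithQualityWeights, the 2 (S100a11 and Anxa2) without graft replicate 2, where 33 of all 16041 genes were called, and 0 to 0 in edgeR. Whether replicate numbers pair the libraries is not known from the labels. Deviations of same-numbered libraries correlated at -0.07, 0.11 and 0.10. For numbers 2 and 3 the best-matching control library was the one of the same number, and for number 1 it was not. A replicate block without control replicate 4 called 2 members (Anxa1 and Anxa5) in voomWithQualityWeights and 0 in edgeR, beside 77 and 5 of all 14900 genes. Without the block, the same libraries gave 0 calls over all genes in both tests. Without quality weights, the adjusted P of Anxa2 was 0.0759 and that of Anxa5 0.0585. In edgeR, Anxa2 lost its call at an adjusted P of 0.05 on library size alone and with robust=TRUE. It also lost it with the replicate block (edgeR adjusted P = 0.119) and without any library but graft replicate 2. The cause of these changes was not tested. S100a6 had few counts, 0 to 182 a library, and 4 in graft replicate 2.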
